A study of Mus musculus with 12 samples.

Results

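Of the 32288 genes and knock-in sequences counted in each tumor, 10 were chosen by name because they make the proteases, the proteoglycan or the mediators of the mast cell granule: Cpa3, Tpsb2, Tpsab1, Cma1, Mcpt4, Hdc, Tph1, Srgn, Hpgds and Slc18a2. All 10 had enough counts to be tested. P815 is a mouse mastocytoma line, a tumor of mast cells, and both lines used here were single-cell clones. P815-IFNG carried GAVPO, a light-activated transcription activator, with blasticidin resistance behind an EF-1α promoter, a cassette of Ifng, Cxcl10 and the hGluc reporter behind the UAS promoter that GAVPO drives, and an mRuby and luciferase reporter. P815-M carried the mRuby and luciferase reporter alone, so the cassette and the clone cannot be told apart in a comparison of the lines. DBA/2 mice of 8 to 10 weeks carried 1 tumor of either line under the skin of the back. For 6 days the tumor area was lit with blue light (12 h on and 12 h off) or got no blue light, called dark here. There were 3 mice in each of 4 groups. RNA of the whole tumors was sequenced, so fewer cells of a type and less RNA per cell cannot be told apart.

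Mast cells store preformed mediators in granules. Serglycin, the product of Srgn, carries heparin or chondroitin sulfate chains that hold the positively charged proteases and the amines in the granule. The proteases are carboxypeptidase A3 (Cpa3), the chymase family members Cma1 and Mcpt4, and the tryptases (Tpsb2 and Tpsab1, which cut after basic residues). Histidine decarboxylase (Hdc) makes histamine, tryptophan hydroxylase 1 (Tph1) takes the first step to serotonin, and the vesicular monoamine transporter 2 (Slc18a2) loads these amines into granules. Hematopoietic prostaglandin D synthase (Hpgds) makes prostaglandin D2 on activation and is not a granule protein. Connective tissue mast cells are known for high levels of chymase, tryptase, carboxypeptidase and histamine.

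The libraries fell into 2 kinds. Among the 12, 10 held between 2211234 and 2946792 counts, while P815-IFNG light replicate 3 had 41473500 and P815-IFNG dark replicate 3 had 42338096. These 2, called the deep libraries here, are both P815-IFNG, and the main values of the 10 genes are given with and without them. They also differed from the others in the mitochondrial genes: mt-Nd6, which is encoded on the strand opposite to the other mitochondrial coding genes, took 3.56% and 3.85% of the mitochondrial coding counts in the deep libraries and 29.0% to 47.9% in the other 10. The library kit keeps the strand of the RNA. Whether the 10 smaller tables were counted on the strand opposite to the genes was not tested. If they were, their values would not be levels of the genes' own transcripts, so the levels, ranks and folds from these 10 libraries are those of the tables as deposited. The line labels held: GAVPO had 1040 to 1520 counts in the 4 smaller P815-IFNG libraries, 57786 and 79894 in the deep ones and 0 to 4 in P815-M. The Ifng cassette had 6 to 11 counts in the smaller P815-IFNG light libraries and 6 to 9 in the smaller dark ones. The deep libraries held 228 (light) and 126 (dark), and P815-M held 0 to 2. In the smaller P815-IFNG libraries, the cassette counts in light and dark thus overlapped, and no induction by light was seen there.

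Levels are given as CPM, a gene's counts per 1000000 counts of its library, after TMM scaling and without the mitochondrial genes. A count of 3, taken as the floor of detection, equalled 0.931 to 1.56 CPM in the 10 smaller libraries, and 0.0694 (light) and 0.0670 CPM (dark) in the deep pair, counting error only. The 10 genes together took 0.149% to 0.262% of the non-mitochondrial counts in the 10 libraries. In the deep libraries they took 1.294% (95% Wilson interval 1.291 to 1.298) in light and 0.935% (0.932 to 0.938) in the dark.

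The mast cell label was checked against marker genes. Kit, the stem cell factor receptor, ranged from 317 to 585 CPM in the 10 libraries and reached 666 and 616 CPM in the deep ones, and Gata2, a transcription factor of the mast cell lineage, ranged from 361 to 622 with 676 and 775 CPM. Of the IgE receptor chains, the alpha chain gene Fcer1a had 0 counts in 10 of 12 libraries and at most 3, and the beta chain gene Ms4a2 had at most 2 counts in the 10 libraries and 12 and 4 in the deep ones. Mrgprb2, a receptor of connective tissue mast cells, had 0 counts in 11 libraries. The tumors thus had high Kit and Gata2 and few or no counts of Fcer1a, Ms4a2 and Mrgprb2.

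The stretches upstream of 4 of these genes are printed to show where AGATAA and TGATAA lie. These are forms of the GATA motif, which Gata2 is known to bind. Other forms of the motif were not searched or marked. The genes are of high (Cpa3, Cma1), middle (Slc18a2) and low (Mcpt4) level. The stretches are the 250 bases before the start in RefSeq, written 5′ to 3′ along the gene. AGATAA and TGATAA on either strand are in capitals.
Cpa3 (GRCm38.p6, chr3:20242182-20242431, minus strand): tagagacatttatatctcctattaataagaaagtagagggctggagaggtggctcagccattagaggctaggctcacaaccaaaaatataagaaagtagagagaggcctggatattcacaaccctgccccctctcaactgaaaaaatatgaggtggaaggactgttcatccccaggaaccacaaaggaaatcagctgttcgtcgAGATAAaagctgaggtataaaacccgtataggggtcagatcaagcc
Cma1 (GRCm38.p6, chr14:55944676-55944925, minus strand): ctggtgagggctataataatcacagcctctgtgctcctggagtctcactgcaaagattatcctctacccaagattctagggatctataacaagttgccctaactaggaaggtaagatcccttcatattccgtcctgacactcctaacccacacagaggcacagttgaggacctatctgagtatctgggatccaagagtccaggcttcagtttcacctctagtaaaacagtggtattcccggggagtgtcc
Slc18a2 (GRCm38.p6, chr19:59260628-59260877, plus strand): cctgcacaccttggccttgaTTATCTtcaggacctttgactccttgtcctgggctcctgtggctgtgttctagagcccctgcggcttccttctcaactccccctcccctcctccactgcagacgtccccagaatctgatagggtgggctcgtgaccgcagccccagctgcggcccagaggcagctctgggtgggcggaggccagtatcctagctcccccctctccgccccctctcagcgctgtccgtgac
Mcpt4 (GRCm38.p6, chr14:56062311-56062560, minus strand): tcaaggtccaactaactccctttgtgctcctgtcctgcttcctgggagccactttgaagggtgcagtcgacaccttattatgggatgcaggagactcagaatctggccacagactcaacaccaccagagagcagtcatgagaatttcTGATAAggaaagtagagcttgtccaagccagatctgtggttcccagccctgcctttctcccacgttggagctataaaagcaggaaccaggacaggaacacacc

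Cpa3 held 1 AGATAA on its own strand, Slc18a2 held 1 AGATAA on the other strand (read as TTATCT), and Mcpt4 held 1 TGATAA. Cma1 held neither. RefSeq promoters were found for 8 of the 10 genes, in 10 windows, since Tph1 and Srgn have 2 each, and 3 of the 10 windows held one of these motifs. Of all 32851 promoters, 16.6% did. The other windows, those of Hdc, Tph1, Srgn and Hpgds, held neither AGATAA nor TGATAA. The 3 windows with one of these forms belong to 1 gene each of high, middle and low level. Whether the forms go with level cannot be read from so few windows. Other forms of the GATA motif were not searched, so a window without these letters may still hold one.

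Per length of exon, the 10 genes spanned from among the most abundant genes of the tumor to genes with 0 counts in some libraries. Carboxypeptidase A3 came first, with a median over the 10 libraries of 519 CPM per kilobase (range 445 to 725), followed by the chymase Cma1 with 296 (190 to 500). Next were Tph1 with 69.7 (58.1 to 129), Srgn with 52.2 (32.6 to 90.8) and Slc18a2 with 19.1 (12.3 to 29.2). The remaining genes were low, with Mcpt4 at 5.88 (0.726 to 17.1), Hpgds at 3.35 (2.19 to 4.98), Tpsb2 at 1.21 (0 to 3.30), Hdc at 0.268 (0 to 0.944) and Tpsab1 at 0.124 (0 to 1.48) CPM per kilobase. Among neighbours in this order, the ranges did not overlap between Cma1 and Tph1 or between Srgn and Slc18a2, and overlapped in the other 7 pairs. Cpa3 was above Cma1 in 9 of 10 libraries. Among 18524 genes with a length, Cpa3 ranked 125 and Cma1 243 in the 10 libraries, and in both deep libraries Cpa3 ranked 1, with 4990 (light) and 3605 (dark) CPM per kilobase. Serglycin ranked 1313 in the 10 libraries and 37 and 52 in the deep ones. In all 12 libraries Cpa3 and Cma1 were above both tryptases and Tph1 was above Hdc.

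**Figure D1:**
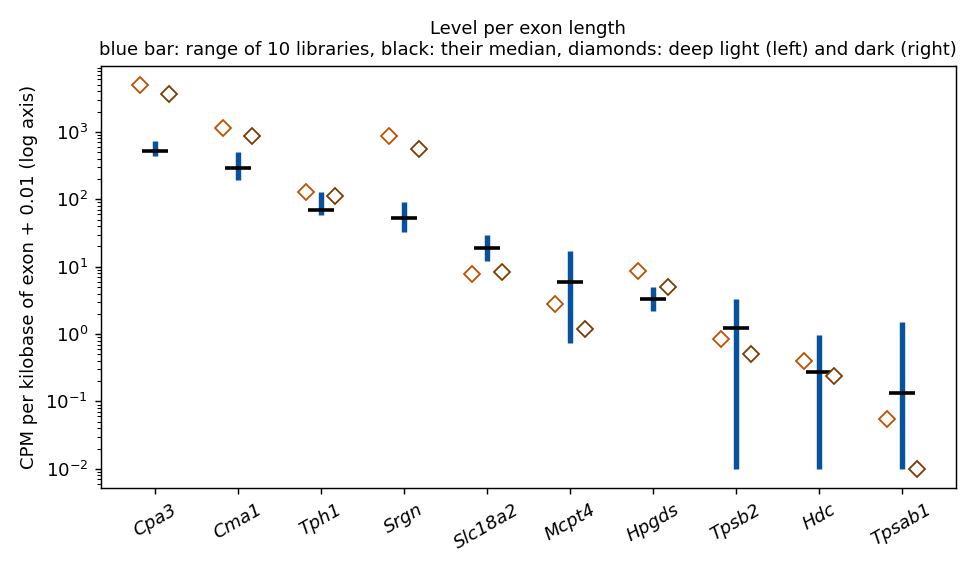
Level of each gene as CPM per kilobase of exon plus 0.01, on a log axis, with the range of the 10 smaller libraries as a blue bar, their median as a black line, and the deep P815-IFNG light (left) and dark (right) libraries as diamonds. Cpa3, Cma1, Srgn and Hpgds lie above the blue bars in both deep libraries, Hpgds narrowly in the dark one, and Slc18a2 lies below its bar in both.

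The deep libraries stood far from the other 2 of their own group in some of these genes and not in others. Cpa3 was 10.3 times the mean of the other 2 libraries in light and 7.31 times in the dark, and Srgn was 17.8 and 7.15 times. Cma1 was 2.57 and 3.60 times, Hpgds 2.68 and 1.46 times, and Tph1 1.92 and 1.51 times the mean of the other 2. Slc18a2 went the other way, at 0.509 and 0.451 times. Over 14799 genes in light, this ratio had a median of 0.25 on the log2 scale and quartiles at -1.36 and 1.20, and over 15127 genes in the dark a median of 0.18 and quartiles at -1.77 and 1.10. Cpa3 and Srgn were at percentiles 98.9 and 99.6 in light and 98.7 and 98.6 in the dark. Each ratio sets 1 library against 2 and has no replicate check.

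**Figure D2:**
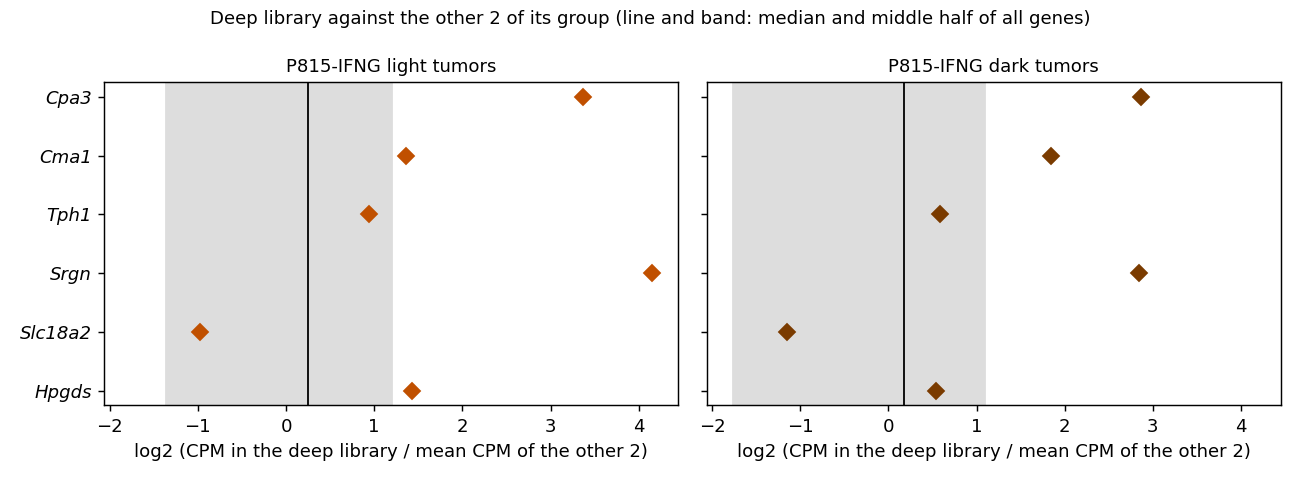
Log2 ratio of CPM in the deep library to the mean CPM of the other 2 libraries of its group, for the 6 genes with at least 27 counts in every library, with the median (line) and interquartile range (band) of all genes. Srgn and Cpa3 lie far right of the band in both groups, Slc18a2 lies inside it on the left.

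In no comparison was any of the 10 genes called. The threshold for a call was an adjusted p no higher than 0.05 (edgeR's quasi-likelihood test, Benjamini-Hochberg over 18804 genes) and a log2 fold change of at least 1 either way. Between P815-IFNG and P815-M this called 0 of the 10 in light, where 0.016% of all genes were called, 0 in the dark (0.0106%) and 0 over both (0.0904%). Between light and dark it called 0 of the 10 in either line, and likewise 0 where the light effects of the lines were set against each other, with 0% of all genes called in each of these comparisons. The fit without the deep libraries also called 0 of the 10 throughout, while it called 0.335% of all genes between the lines in light, 2.64% in the dark and 1.62% over both, 0.0638% between light and dark in P815-IFNG, 1.3% (244 genes) in P815-M and 0.0372% for the light effects set against each other. At an unadjusted p under 0.05, edgeR gave 1 of the 10 between the lines in light (6.79% of all genes), 0 in the dark (6.86%), 3 over both (18.4%), 1 between light and dark in P815-IFNG (2.18%), 0 in P815-M (2.71%) and 0 for the light effects set against each other (1.66%). Without the deep libraries these numbers were, in the same order, 3 (9.55%), 2 (18.1%), 2 (19.2%), 4 (10.1%), 2 (12.8%) and 4 (7.5%). DESeq2 and every other alternative also called none of the 10 genes that they tested. DESeq2 gave no p for Cpa3 and Srgn, and a stricter filter (filterByExpr) left 7 of the 10 to test. Genes without a test could not be called there. Between the lines, the median of all genes on the log2 scale was 0.27 over 12 libraries and 0.04 without the deep ones, and the values below are not corrected for that shift. With 3 tumors against 3, an exact permutation test cannot go below p = 0.1.

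**Figure D3:**
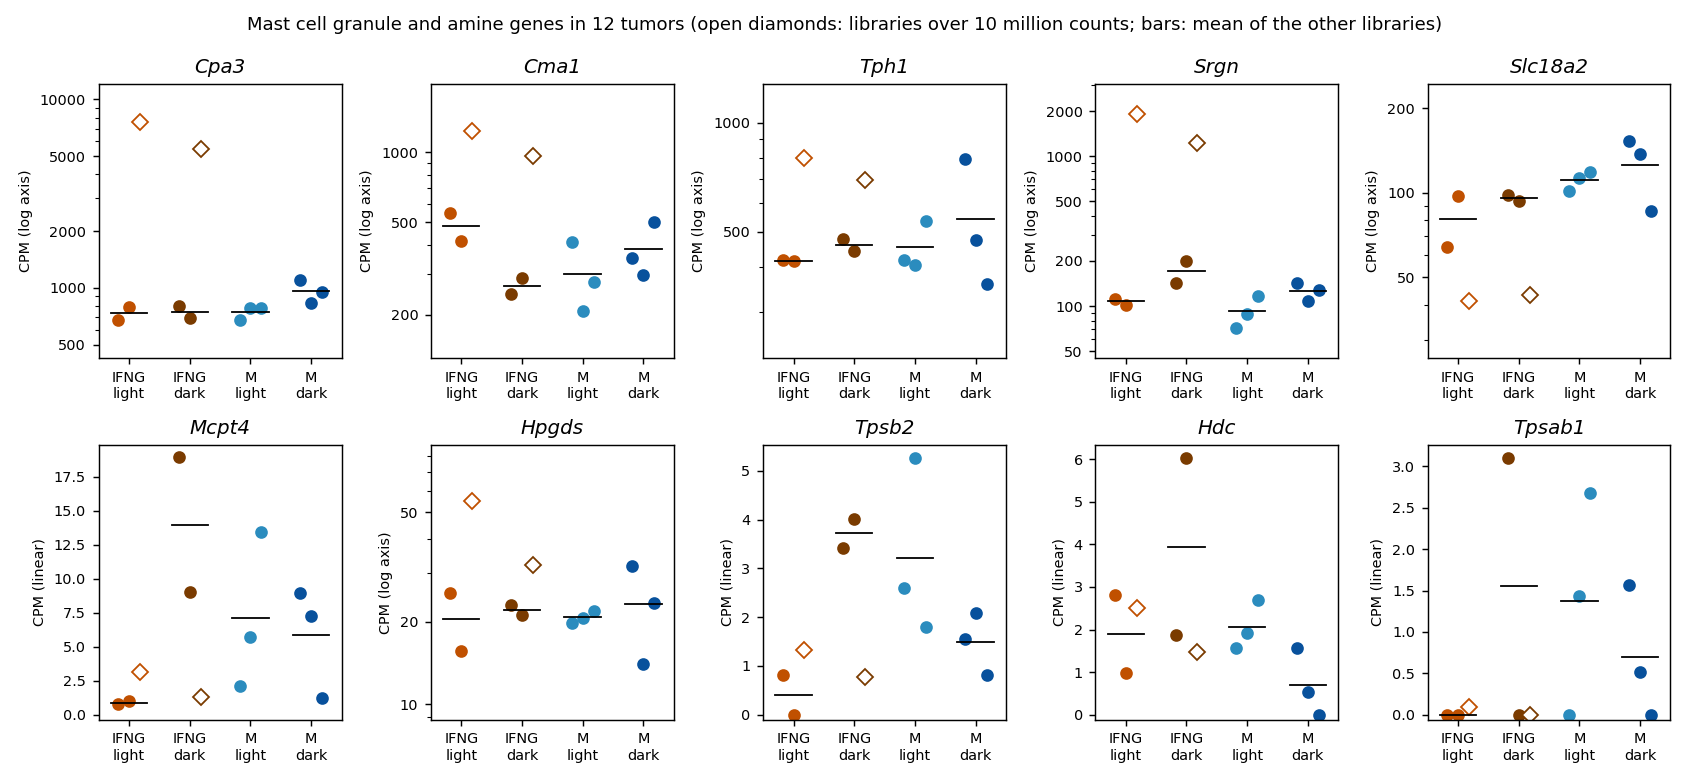
CPM of each gene in the 12 tumors by group (log axes for 6 genes, linear axes for Mcpt4, Tpsb2, Hdc and Tpsab1), with the deep libraries as open diamonds and a bar at the mean of the other libraries. Apart from the diamonds of Cpa3, which stand at 7570 and 5469, all its values lie between 675 and 1099.9.

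Carboxypeptidase A3 differed little among the 10 smaller libraries. Cpa3 was at 675, 791 and, in the deep library, 7570 CPM in P815-IFNG light tumors and at 802, 694 and, in the deep library, 5469 CPM in P815-IFNG dark tumors. P815-M light tumors had 676, 784 and 779 CPM, and P815-M dark tumors had 1099.9, 831 and 948 CPM. Only the deep libraries were outside 675 to 1099.9 CPM. Over both conditions the log2 fold change of P815-IFNG against P815-M was 1.64 ± 0.73 (SE, edgeR adjusted p = 0.266, n = 6 and 6), and without the deep libraries it was -0.19 ± 0.14 (edgeR adjusted p = 0.501, n = 4 and 6). The sign of the line difference therefore rested on the 2 deep libraries. In P815-M, all 3 light tumors were below all 3 dark tumors, with a log2 fold change of -0.36 ± 1.01 (edgeR adjusted p = 1) and an exact permutation p of 0.1, the smallest the design allows. The SE comes from a spread shared by all groups, and without the deep libraries the same comparison gave -0.38 ± 0.17 (edgeR unadjusted p = 0.0374, adjusted p = 0.347). Cpa3 was the single gene of the 10 without overlap there, and 18.1% of all genes had none.

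The chymase Cma1 was at 545, 414 and 1230 CPM in P815-IFNG light tumors, the last in the deep library, and at 246, 288 and 960 CPM in P815-IFNG dark tumors, again with the deep library last. P815-M light tumors had 411, 207 and 275 CPM and P815-M dark tumors 350, 295 and 499 CPM. In light, all 3 P815-IFNG tumors were above all 3 P815-M tumors, and in the dark they were not. The log2 fold change between the lines in light was 1.29 ± 0.62 (edgeR adjusted p = 0.629) and 0.69 ± 0.25 without the deep library (edgeR adjusted p = 0.342). In the dark it was 0.38 ± 0.61 (edgeR adjusted p = 0.766), and without the deep library both remaining P815-IFNG tumors were below the P815-M tumors, at -0.52 ± 0.26 (edgeR adjusted p = 0.301). Light against dark in P815-IFNG gave 0.55 ± 0.61 (edgeR adjusted p = 1), and 0.84 ± 0.28 without the deep libraries (edgeR adjusted p = 0.299), while P815-M gave -0.36 ± 0.61 (edgeR adjusted p = 1). The difference between these effects of light, 0.91 ± 0.86 with all libraries and 1.21 ± 0.36 without the deep pair, did not pass the test (edgeR adjusted p = 1 and 0.354).

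Mcpt4, a chymase that binds heparin, lies 115 kb from Cma1 on chromosome 14 (GRCm38, 14:56059629-56062313, minus strand) and was far lower. Its counts were 2, 2 and, in the deep library, 135 in P815-IFNG light tumors and 61, 27 and, in the deep library, 59 in P815-IFNG dark tumors. P815-M light tumors had 4, 12 and 30 counts and P815-M dark tumors 23, 14 and 3. As CPM, the 2 smaller P815-IFNG light libraries held 0.804 and 0.976, below the floor, and the 2 smaller dark ones 18.9 and 9.05. In the deep pair the order was the other way round, with 3.13 CPM in light and 1.32 CPM in the dark. Light against dark in P815-IFNG was -2.36 ± 1.04 on the log2 scale (edgeR adjusted p = 1, unadjusted p = 0.0431) and -3.92 ± 0.89 without the deep libraries, where the edgeR adjusted p of 0.0984 was the lowest of the 10 genes in that fit. After ComBat-seq with the deep pair as a batch, the value was -0.16 (edgeR adjusted p = 0.996). The size of this difference thus depended on how the deep libraries were handled. In P815-M the same comparison gave 0.29 ± 1.01 (edgeR adjusted p = 1), with tumors from 1.23 to 13.4 CPM in both conditions together. Set against each other, the light effects of the lines differed by -2.65 ± 1.44 (edgeR adjusted p = 1), by -4.21 ± 1.09 without the deep libraries (edgeR adjusted p = 0.217) and by -0.43 after ComBat-seq (edgeR adjusted p = 1). A single stretch of 100 bases of Mcpt4 transcript was shared with Cma2, 0.0991% of its windows.

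Both tryptase genes, which lie 20.7 kb apart on chromosome 17, were low in every tumor, with at most 5.27 CPM of Tpsb2 and 3.10 CPM of Tpsab1. Tpsb2 had 2, 0 and, in the deep library, 57 counts in P815-IFNG light tumors, 11, 12 and, in the deep library, 35 in P815-IFNG dark tumors, 5, 11 and 4 in P815-M light tumors and 4, 4 and 2 in P815-M dark tumors. In the deep libraries its level was 1.32 and 0.781 CPM, within the range of the others and above the floor of the deep pair. In light, all 3 P815-IFNG tumors were below all 3 P815-M tumors, at -1.93 ± 0.95 on the log2 scale (edgeR adjusted p = 0.629, exact permutation p = 0.1), and -2.74 ± 1.05 without the deep libraries (edgeR adjusted p = 0.377). Light against dark in P815-IFNG was -1.65 ± 0.93 (edgeR adjusted p = 1), and -2.96 ± 1.07 without the deep libraries (edgeR adjusted p = 0.337). Both values without the deep pair rest on 2 counts in P815-IFNG light. The first sets them against 5, 11 and 4 counts in P815-M light, the second against 23 in P815-IFNG dark. As with Mcpt4, the deep pair had the opposite order of light and dark. Tpsab1 had 28 counts over the 12 libraries, 10 of them in P815-IFNG dark replicate 1, with 0 counts in 6 libraries and at most 3 in 8, so no fold is given for it. The 2 genes shared no stretch of 100 bases with each other or with another gene.

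In light, 3 of the 10 genes did not overlap between the lines: Cma1 was higher and Tpsb2 and Slc18a2 were lower in P815-IFNG, against 16.9% of all genes without overlap. In the dark none of the 10 did, against 21.2%. Among the 10 smaller libraries alone, where 2 tumors stand against 3, the numbers were 4 of 10 in light (24.6% of all genes), with Mcpt4 lower, and 5 of 10 in the dark (33.6%), with Cpa3 and Cma1 lower and Tpsb2, Mcpt4 and Hdc higher in P815-IFNG. Over both conditions 0 of 10 did, against 2.98% of all genes (4.17% among the 10 libraries). Between light and dark in P815-IFNG, 0 of 10 did with all libraries (3.75%), and 5 of 10 when 2 smaller tumors were set against 2 (39.2%), with Cma1 higher and Mcpt4, Tpsb2, Tph1 and Srgn lower in light.

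Serglycin, like Cpa3, was higher in both deep libraries than in any of the other 10. Srgn was at 112, 102 and, in the deep library, 1908 CPM in P815-IFNG light tumors and at 142, 199 and, in the deep library, 1221 CPM in P815-IFNG dark tumors. P815-M light tumors had 71.6, 88.6 and 117 CPM, and P815-M dark tumors 143, 109 and 127 CPM. Among the smaller libraries the highest value was 199 CPM. Over both conditions, P815-IFNG against P815-M was 2.49 ± 0.79 on the log2 scale, the largest of the 9 folds between the lines (edgeR adjusted p = 0.246, exact permutation p = 0.0541), and 0.33 ± 0.16 without the deep libraries (edgeR adjusted p = 0.256). Within P815-IFNG, light against dark was 0.44 ± 1.06 with the deep pair and -0.68 ± 0.24 without it (edgeR adjusted p = 1 and 0.328), since the deep light library was above the deep dark one while both smaller light libraries were below both smaller dark ones. In P815-M the light against dark value was -0.45 ± 1.07 (edgeR adjusted p = 1), and -0.47 ± 0.20 with the spread of the fit without the deep libraries (edgeR unadjusted p = 0.0299, adjusted p = 0.318).

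Of 19 genes that build the sugar chains of serglycin and related proteoglycans, 0 were called in any comparison. Between the lines over both conditions, 12 had a fold above 0, with a median of 0.12 on the log2 scale against 0.27 for all genes. An unadjusted edgeR p under 0.05 was found for 4, and for 18.4% of all genes. Without the deep libraries 10 were above 0, with a median of 0.021 against 0.036 for all genes. Their summed level was 931 to 1187 CPM in the 10 libraries and 1229 and 1397 CPM in the deep ones, a far smaller gap than that of Srgn. Ndst2, the sulfotransferase known from mast cell heparin, was at 284 to 463 CPM in the 10 libraries and at 363 and 404 CPM in the deep pair, and Hs6st1, a heparan 6-O-sulfotransferase, at 107 to 197 with 169.6 and 189 CPM.

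The 2 amine-synthesising enzymes were far apart in level. Tph1 was at 417, 416 and, in the deep library, 800.5 CPM in P815-IFNG light tumors and at 479, 442 and, in the deep library, 693 CPM in P815-IFNG dark tumors. P815-M light tumors had 419, 405 and 537 CPM and P815-M dark tumors 794, 476 and 358 CPM. The P815-M dark tumors alone spanned most of the range of all 12. Between the lines over both conditions the log2 fold change was 0.13 ± 0.32 (edgeR adjusted p = 0.818), and -0.18 ± 0.18 without the deep libraries (edgeR adjusted p = 0.663). Light against dark was 0.019 ± 0.45 in P815-IFNG and -0.26 ± 0.45 in P815-M (edgeR adjusted p = 1 in both), and -0.15 ± 0.27 in P815-IFNG without the deep pair (edgeR adjusted p = 0.899).

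Histidine decarboxylase was low in every tumor, with at most 6.03 CPM. Hdc had 7, 2 and, in the deep library, 108 counts in P815-IFNG light tumors, 6, 18 and, in the deep library, 66 in P815-IFNG dark tumors, 3, 4 and 6 in P815-M light tumors and 4, 1 and 0 in P815-M dark tumors. Its level ran from 0 to 6.03 CPM, with 2.50 and 1.47 CPM in the deep libraries, so here the deep pair lay within the range of the others. P815-IFNG against P815-M in the dark was 2.08 ± 1.00 on the log2 scale (edgeR adjusted p = 0.604) and 2.38 ± 0.94 without the deep library (edgeR adjusted p = 0.162), in tumors with 0 to 18 counts outside the deep library. Light against dark was -0.50 ± 0.88 in P815-IFNG and 1.52 ± 1.03 in P815-M (edgeR adjusted p = 1 in both), and -1.01 ± 0.93 in P815-IFNG without the deep pair (edgeR adjusted p = 0.772).

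The transporter Slc18a2 was at 64.3, 97.6 and, in the deep library, 41.3 CPM in P815-IFNG light tumors and at 98.1, 93.2 and, in the deep library, 43.1 CPM in P815-IFNG dark tumors. P815-M light tumors had 101, 113 and 119 CPM and P815-M dark tumors 153, 138 and 86.0 CPM. The P815-IFNG values were all at or below 98.1 CPM, and 5 of 6 P815-M values were above it. Over both conditions the log2 fold change of P815-IFNG against P815-M was -0.70 ± 0.29 (edgeR adjusted p = 0.254, exact permutation p = 0.0152), and -0.42 ± 0.16 without the deep libraries (edgeR adjusted p = 0.138, exact permutation p = 0.0667). The lowest adjusted p of any of the 10 genes in any alternative was that of Slc18a2 in this comparison, 0.0932 (DESeq2 after ComBat-seq, log2 fold change -0.45). Light against dark was -0.21 ± 0.40 in P815-IFNG and -0.17 ± 0.40 in P815-M (edgeR adjusted p = 1 in both), and -0.26 ± 0.25 in P815-IFNG without the deep pair (edgeR adjusted p = 0.791). The gene (GRCm38, 19:59260896-59296012, plus strand) shares 111 bases of exon with Gm29261, an antisense gene on the other strand. Gm29261 had 22.6 to 187 CPM in the 10 libraries and 2.94 and 2.59 CPM in the deep pair, and its part in the Slc18a2 values was not tested. None of the other 9 genes shares exon bases with a gene on the other strand.

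Of 15 other genes of amine synthesis, transport and breakdown, 13 could be tested and 0 were called. Between the lines over both conditions 7 of the 13 had a fold above 0. Their median was 0.41 on the log2 scale, against 0.27 for all genes. An unadjusted edgeR p under 0.05 was found for 2, and for 18.4% of all genes. Without the deep libraries 9 were above 0, with a median of 0.23 against 0.036 for all genes. Ddc, the decarboxylase that takes the second step to serotonin, had 0 to 4 counts in the 10 libraries and 7 and 13 in the deep ones, and Slc6a4, the serotonin uptake transporter, 0 to 9 with 6 and 8. Both were thus far below Tph1 in every library. Maoa, which degrades serotonin, was at 11.2 to 21.9 CPM in the 10 libraries and at 47.8 and 48.5 CPM in the deep pair, and Spr, which makes the cofactor of Tph1, at 9.76 to 26.3 with 9.56 and 9.20 CPM.

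Prostaglandin D synthase overlapped between all groups. Hpgds was at 25.3, 15.6 and, in the deep library, 54.9 CPM in P815-IFNG light tumors, at 23.0, 21.1 and, in the deep library, 32.1 CPM in P815-IFNG dark tumors, at 19.7, 20.6 and 21.9 CPM in P815-M light tumors and at 32.0, 14.1 and 23.5 CPM in P815-M dark tumors. The highest and the lowest of the smaller libraries were both in the P815-M dark group. P815-IFNG against P815-M over both conditions was 0.39 ± 0.32 on the log2 scale (edgeR adjusted p = 0.46), and -0.047 ± 0.22 without the deep libraries (edgeR adjusted p = 0.983). Light against dark was 0.34 ± 0.44 in P815-IFNG, or -0.11 ± 0.34 without the deep pair, and -0.16 ± 0.45 in P815-M (edgeR adjusted p = 1, 0.969 and 1). Of 11 other genes of eicosanoid synthesis 0 were called, and 10 had a fold above 0 between the lines. Their median was 0.32, against 0.27 for all genes (9, and 0.51 against 0.036, without the deep libraries). The most abundant of them were Alox5ap, which presents arachidonate to 5-lipoxygenase, at 71.4 to 117 CPM in the 10 libraries with 90.4 and 87.0 CPM in the deep ones, and Lta4h, leukotriene A4 hydrolase, at 19.3 to 35.4 with 58.6 and 72.0 CPM.

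**Figure D4:**
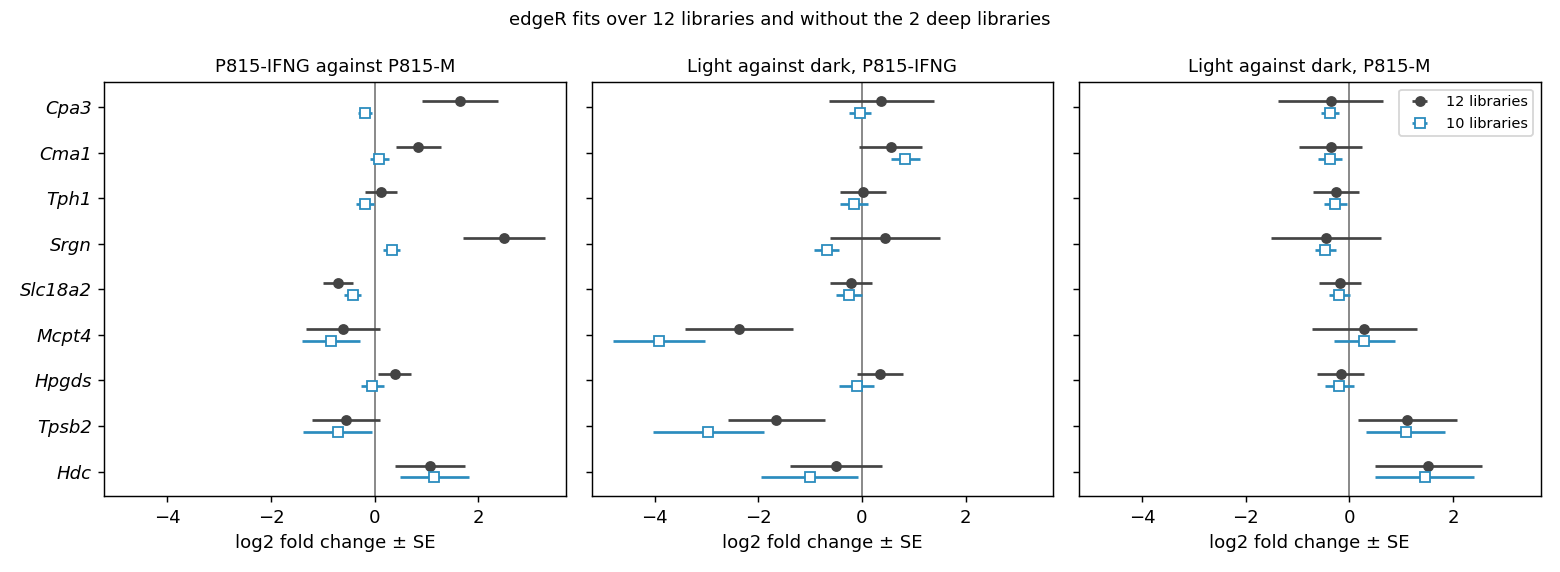
Log2 fold changes from edgeR for 9 of the genes, with an SE derived from the F statistic of its test. They are given over 12 libraries (filled circles) and without the deep pair (open squares). The panels are P815-IFNG against P815-M and light against dark in each line. Between the lines, Cpa3 goes from 1.64 to -0.19 and Srgn from 2.49 to 0.33 when the deep pair is left out, and in P815-M the circles and squares nearly coincide while the error bars of the squares are shorter.

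Other mast cell gene groups were measured beside these. Of 9 other granule serine proteases, 8 could be tested and 0 were called in any comparison. Over both conditions 3 of the 8 had a fold above 0 between the lines, and 1 without the deep libraries. Cathepsin G (Ctsg), stored in granules of mast cells and neutrophils, was the highest of them with 52.3 to 147 CPM in the 10 libraries and 435 and 253 CPM in the deep ones, and the mucosal chymase Mcpt2 had 2.39 to 40.2 with 28.7 and 13.1 CPM. Of 23 genes of granule maturation and secretion, 22 could be tested and 0 were called, with 18 folds above 0 between the lines and a median of 0.26 (17 and 0.21 without the deep libraries). Their summed level was 2677 to 4516 CPM in the 10 libraries and 4114 and 3867 CPM in the deep pair, so this list lay within the range of the others there. Of 16 genes of mast cell identity, 14 could be tested and 0 were called. Of these, 9 had a fold above 0, with a median of 0.34 (7 and 0.0042 without the deep libraries). The median of all genes in this comparison of the lines was 0.27, and 0.036 without the deep libraries.

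Markers of fibroblasts, macrophages and skeletal muscle had counts in every tumor. The summed level of 5 fibroblast markers was 4476 to 12381 CPM in the 10 libraries and 3776 and 4545 CPM in the deep ones, and that of 6 macrophage markers was 631 to 1343 with 560 and 407 CPM. Of the 2 highest macrophage markers, the growth factor receptor Csf1r was at 224 to 348 CPM in the 10 libraries and at 39.6 and 42.5 CPM in the deep pair, while the complement gene C1qa was at 57.3 to 321 with 77.6 and 56.3 CPM. Of 4 skeletal muscle markers the sum was 91.4 to 560 CPM, with 142 and 165 CPM in the deep libraries. The sums were lower for endothelial cells (17.7 to 109 CPM, with 23.8 and 37.1), T cells (1.95 to 29.5, with 14 and 7.86), neutrophils (7.81 to 23.0, with 8.84 and 5.98) and basophils (1.61 to 11.5, with 16.1 and 20.4). B cell markers summed to 2.47 to 7.04 CPM with 0.301 and 0.067 in the deep pair. Of the keratinocyte markers only Krt10 had enough counts, at 2.60 to 10.5 CPM with 0.394 and 0.290. The neutrophil sum lacks Ly6g and the basophil sum lacks Prss34, which had too few counts. The part of these cells in the values of the 10 genes was not tested.

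Whether the 10 genes rose and fell together across the 10 smaller libraries could not be settled by their pairwise correlations. Of 45 pairs, 32 had a positive Pearson correlation of log2 CPM, with a median r of 0.25. By Pearson's or Spearman's correlation, 0 passed an adjusted permutation p of 0.05. The lowest Pearson permutation p, for Cma1 and Mcpt4, was 0.00384 and became 0.173 after adjustment. Failing the adjustment therefore does not show that the genes vary apart. No median r for pairs of other genes was measured. The 5 genes with the pattern most like Cpa3 were Cmss1 (r = 0.95), Ccnd2 (0.95), Gfi1 (0.94), Timm13 (0.92) and Lactb2 (0.91), among 10019 genes over 10 libraries. These are the highest of many correlations and are given as a description.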

How the data were processed

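RNA-seq of 12 single tumors was used, 3 mice in each of 4 groups. Per the labels and the study's methods, the authors prepared stranded mRNA libraries, trimmed reads with fastp, aligned them with STAR 2.7.9a to mm10 with the knock-in sequences added, and counted genes with HTSeq 0.13.5 at its defaults. The authors deposited 1 table of raw counts for each tumor, taken before the mitochondrial genes were removed and before the authors' ComBat-seq adjustment and DESeq2 test.

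Groups came from the sample titles. The 13 mitochondrial rows were removed, and the 18804 genes with 10 or more counts in all were tested with edgeR 4.0.16 (TMM, group means over all 12 libraries, quasi-likelihood test, Benjamini-Hochberg adjustment). The scripts were tested on simulated data. CPM are TMM-scaled, and single-gene exact permutation tests used log2 CPM with a prior count of 2, two-sided. Floors and Wilson intervals cover counting error only. The SE of a log2 fold change is its absolute value divided by the square root of the F statistic of the edgeR test. Alternatives were DESeq2 1.42.0, other size factors and filters, mitochondrial genes kept, only the libraries compared, a replicate block, the deep libraries left out or as a term, ComBat-seq (sva 3.50.0), and each library left out. ComBat-seq here took the deep pair, both P815-IFNG, as 1 batch and the other 10 libraries as another, with the groups kept. The study's methods do not name its batches, so these values are not the authors' own adjustment. The 10 genes and the gene lists were chosen with earlier results of these data known. The genes named are the 10, any gene called in a list (there was none) with the 2 highest of the lists described, the 5 genes most like Cpa3, and mt-Nd6. Those most like Hdc are not reported here. The IgE receptor genes, Mrgprb2, Ddc and Slc6a4 were added after their values were seen. Promoters came from RefSeq (GRCm38.p6), and lengths and positions from GENCODE M21.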

Additional observations from a re-analysis of the deposited data

How the results depend on the processing

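No gene of the 10 was called in any of the 6 comparisons under any of the 23 alternatives, also with no minimum fold. Signs were counted for the lines over both conditions and for light against dark in each line, without Tpsab1. Under the alternatives other than leaving out 1 library, 257 of these log2 fold changes kept their sign and 25 did not. Signs also turned outside this count. Without the deep pair, Cpa3 between the lines went from 2.01 to -0.023 in light and from 1.27 to -0.36 in the dark. Cma1 between the lines in the dark went from 0.38 to -0.52. The filterByExpr filter left 7 of the 10 genes to test, and DESeq2 gave no p for Cpa3 and Srgn. Genes without a test could not be called there. Using only the libraries compared gives no separate value for the lines over both conditions or for the difference in the effect of light, which use all 12. The reversed values within the count of signs follow, and their cause was not tested beyond what leaving out the deep pair shows.

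For P815-IFNG against P815-M over both conditions, leaving out the deep pair gave -0.19 for Cpa3, -0.18 for Tph1 and -0.047 for Hpgds. With depth as a term the values were -0.19, -0.18 and -0.035, after ComBat-seq -0.18, -0.17 and -0.032, and after ComBat-seq with DESeq2 -0.21, -0.20 and -0.063. Mcpt4 turned to 0.32 after ComBat-seq and 0.23 with DESeq2 after it. Tph1 was -0.028 with DESeq2 and -0.028 with edgeR on DESeq2's size factors. For light against dark in P815-IFNG, leaving out the deep pair gave -0.040 for Cpa3, -0.15 for Tph1, -0.68 for Srgn and -0.11 for Hpgds. With depth as a term Tph1 was -0.024 and Srgn -0.21, after ComBat-seq -0.014 and -0.30, and Srgn was -0.29 with DESeq2 after it.

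Leaving out 1 library at a time moved Tph1 between the lines from -0.086 to 0.32. For light against dark in P815-IFNG it moved Cpa3 from -1.57 to 1.90, Hdc from -0.93 to 0.37, Tph1 from -0.32 to 0.18, Srgn from -2.18 to 1.94, Hpgds from -0.27 to 0.66 and Slc18a2 from -0.57 to 0.067. In P815-M it moved Mcpt4 from -0.57 to 0.76, Tph1 from -0.49 to 0.12 and Hpgds from -0.42 to 0.14. With the sign kept, the values between the lines ranged from 0.58 to 1.87 for Cpa3, 1.09 to 2.75 for Srgn, 0.37 to 0.99 for Cma1, 0.63 to 1.83 for Hdc, 0.043 to 0.55 for Hpgds, -1.01 to -0.28 for Tpsb2 and -1.13 to -0.19 for Mcpt4. Light against dark in P815-IFNG ranged from 0.022 to 1.38 for Cma1, -2.55 to -1.23 for Tpsb2 and -3.40 to -1.50 for Mcpt4, and in P815-M from 0.94 to 3.04 for Hdc, 0.56 to 1.42 for Tpsb2, -0.66 to -0.12 for Cma1 and -0.39 to -0.0085 for Slc18a2.

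The number of genes called among all tested depended on the setting. Between the lines over both conditions it was 17, 12 with the replicate block, 241 with DESeq2, 304 without the deep pair, 245 with depth as a term and 594 after ComBat-seq, and 4 to 21 with 1 library left out. Between light and dark in P815-M it was 0 with all 12 libraries, 338 with only the libraries compared, 244 without the deep pair, 194 with depth as a term and 247 after ComBat-seq, and in P815-IFNG 0, 0, 12, 2 and 150. DESeq2 called 1 and 4. Without the deep pair 63 genes, not 3, were called between the lines in light and 496, not 2, in the dark. With the replicate block 0 of the 10 genes were called in any comparison. Same-numbered tumors deviated together (r over 0.1) in 11 of 18 pairs, from -0.22 to 0.97. In P815-IFNG light against dark all 3 pairs did (0.88, 0.85 and 0.97), where both deep libraries carry number 3, and in P815-M light against dark none did. Deviations were taken from group means that include the deep libraries. These shift numbers 1 and 2 the same way in both P815-IFNG groups, so the r there cannot tell whether tumors were paired. DESeq2 gave no p for Cpa3 and Srgn.

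Depth limits the low genes: Tpsb2, Tpsab1, Mcpt4 and Hdc had at most 3 counts in 3, 8, 3 and 4 libraries.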

Other observations

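The chymases Cma1 and Mcpt4 ran in opposite directions across the 10 smaller libraries. Their log2 CPM had a Pearson r of -0.84 (permutation p = 0.00384, adjusted over 45 pairs 0.173) and a Spearman rho of -0.79 (permutation p = 0.00896, adjusted 0.19), and r was -0.69 without the 2 libraries farthest from the median of Cma1. The relation did not pass the adjustment. It had the lowest Pearson p of the 45 pairs, and it rests on 2 to 61 counts of Mcpt4. The negative sign was not particular to this pair. Cma1 also had an r of -0.74 with Tpsab1 and -0.68 with Tpsb2 (rho -0.73 and -0.82). Its pair with Tpsb2 had the lowest Spearman p of the 45 (permutation p = 0.00592, adjusted 0.19). Mcpt4 and the tryptase Tpsab1 ran together (r = 0.81, permutation p = 0.00996, adjusted 0.223, rho = 0.77, permutation p = 0.0147, adjusted 0.19, r = 0.67 without 2 libraries), on counts of 0 to 10 for Tpsab1. Tpsab1 had 0 counts in 3 of the 4 smaller P815-IFNG libraries and in 2 of the 6 P815-M libraries. The r with Tpsab1 therefore rests on few libraries with counts. The 2 smaller P815-IFNG light libraries had 545 and 414 CPM of Cma1, both among the 3 highest of the 10, and the 2 lowest Mcpt4 levels.

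In the deep pair, light against dark, Cpa3 stood at 7570 against 5469 CPM, Srgn at 1908 against 1221, Cma1 at 1230 against 960.2 and Mcpt4 at 3.13 against 1.32. These are 1 library each, with no replicate check.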
